A study of Drosophila melanogaster with 3 samples.

Results

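The genes described here mostly encode the machinery that starts transcription by RNA polymerase II in Drosophila melanogaster. They include subunits of the polymerase itself and Polr2M, which associates with it, and the TATA-box-binding protein Tbp with its associated factors (TAFs). The other factors named TFII and subunits of Mediator complete the set. Members were the protein-coding genes whose symbol in the Ensembl models for BDGP6 begins with Taf and a digit, with TfII, with Polr2, or with MED and a digit, together with Tbp. The rule found 63 of 13945 protein-coding genes on the major chromosome arms: 13 of RNA polymerase II, 16 of TFIID, 9 of the other TFII factors and 25 of Mediator. The rule used no measured value. As it went by symbol, it also took in TfIIS and Taf12L, a testis relative of the TAFs. The data are peak lists from chromatin immunoprecipitation and sequencing (ChIP-seq) for the protein CG6765 in 1 group of 3 biological replicates. All replicates were whole embryos of mixed sex, aged 0 to 24 h, of strain CG6765-GFP, a transgenic line that stably expresses CG6765 with GFP (eGFP in the sample descriptions) at its C terminus. The group therefore mixes all cell types and stages of embryogenesis, and no untagged group was among the samples; a control experiment named in the labels is not analysed here. The descriptions give an antibody against GFP, whereas the antibody label gives CG6765.

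Transcription by RNA polymerase II starts when TFIID, made of Tbp and the TAFs, settles on the core promoter and TFIIA and TFIIB join it. The polymerase then arrives with TFIIF, TFIIE and TFIIH complete the assembly, and Mediator carries signals from gene-specific activators to the polymerase. Mediator is described by its head, middle and tail modules, joined by the scaffold MED14, and by a detachable kinase module whose genes carry other names. Polymerase II transcribes all protein-coding genes, so these factors are needed in nearly every cell of the embryo.

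A promoter summit was found at 15 of the 63 genes. Here that means a summit of the authors' reproducibility-thresholded list within 500 bp of an annotated start site. They were Polr2B, Polr2F and Polr2J for the polymerase, Taf2, Taf4 and Taf5 for TFIID, TfIIA-L and TfIIA-S for the other factors, and MED4, MED6, MED17, MED25, MED27, MED30 and MED31 for Mediator. Each gene had its own summit, so the 15 genes stand for 15 separate peaks. The share was 23.8% (Wilson 95% interval 15.0 to 35.6, which covers the counting of genes only), against 17.0% of all protein-coding genes, a value inside that interval.

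To show what lay under the strongest of these summits, the summit base and 50 bases on either side are printed for the 10 members of highest signal that are not on the right arm of chromosome 2. The sequences are from RefSeq on dm6, in the direction of the named gene, with the summit in the middle. Capitals mark runs of at least 6 bases made only of A and T.
MED30 (chr3L:654240-654340, minus strand): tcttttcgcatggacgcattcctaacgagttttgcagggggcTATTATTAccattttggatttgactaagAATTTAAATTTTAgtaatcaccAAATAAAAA
Polr2B (chr3R:14125591-14125691, plus strand): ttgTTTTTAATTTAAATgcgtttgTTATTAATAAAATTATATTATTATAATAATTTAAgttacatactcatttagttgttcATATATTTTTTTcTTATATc
Taf2 (chr3L:9888820-9888920, minus strand): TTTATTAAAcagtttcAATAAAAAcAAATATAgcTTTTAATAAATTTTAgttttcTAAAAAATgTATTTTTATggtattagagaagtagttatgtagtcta
MED17 (chr3R:18188855-18188955, plus strand): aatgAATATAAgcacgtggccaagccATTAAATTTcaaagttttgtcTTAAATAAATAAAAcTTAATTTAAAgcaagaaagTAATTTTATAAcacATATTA
Taf4 (chr3L:16113633-16113733, plus strand): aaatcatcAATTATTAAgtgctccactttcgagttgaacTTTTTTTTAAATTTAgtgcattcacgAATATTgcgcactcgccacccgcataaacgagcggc
Polr2F (chr3R:5371701-5371801, plus strand): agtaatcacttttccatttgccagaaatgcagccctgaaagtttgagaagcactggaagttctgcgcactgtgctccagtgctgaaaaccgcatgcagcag
MED27 (chr3R:5654982-5655082, plus strand): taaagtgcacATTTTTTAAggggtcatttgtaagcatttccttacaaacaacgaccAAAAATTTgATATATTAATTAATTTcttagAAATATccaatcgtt
MED4 (chr3L:7250648-7250748, minus strand): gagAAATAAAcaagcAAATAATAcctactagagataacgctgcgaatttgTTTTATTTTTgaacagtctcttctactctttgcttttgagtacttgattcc
Polr2J (chr2L:17410432-17410532, minus strand): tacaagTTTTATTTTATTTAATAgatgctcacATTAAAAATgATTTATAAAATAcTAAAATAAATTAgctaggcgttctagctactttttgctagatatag
TfIIA-S (chr3R:23891057-23891157, minus strand): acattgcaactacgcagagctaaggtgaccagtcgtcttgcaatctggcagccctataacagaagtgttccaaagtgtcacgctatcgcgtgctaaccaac

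Long runs of A and T filled much of several of these windows. They took up 66 bases of the window at Polr2B, 57 at MED17 and 56 at Taf2, and 0 at Polr2F and TfIIA-S. Across the 15 members with a thresholded summit the median was 38 bases and the median GC content was 26.7%, from 13.9% at Polr2B to 58.4% at MED6. The corresponding medians over all 2370 protein-coding genes with a thresholded summit were 22 bases and 36.6%. At the 16 members whose strongest summit was a weaker candidate, GC content had a median of 38.1%, beside 42.6% for such genes as a whole. Both sets of members thus had lower medians than the genes as a whole, but the windows of single members covered most of the range. The sets were not matched for layout. Another coding start was within 500 bp of the summit at 73.3% of the members with a thresholded summit and 48.4% of all such genes. For weaker candidates the shares were 87.5% and 34.0%. Summits shared by genes were counted once per gene, so the 2370 genes stand for 1787 separate summits.

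Of the words searched, those found in at most 6.32% of all summits were in 0 or 1 of the 15 windows, while TATAAA and TTTAAA were in more. Each was searched on both strands, as letters only. The DNA replication-related element TATCGATA was in 0 of 15, beside 2.85% of the 1787 separate summits at all protein-coding genes. The core of that element, ATCGAT, which overlaps it, was in 1 window (MED25), beside 6.32%. Motif 1, the core promoter word bound by M1BP, was in 0 (1.12% of all), as were the E-box CAGCTG (5.20%) and the GAGA-factor word GAGAGA (4.36%). The TATA-box word TATAAA was in 3 windows, at Polr2J, MED17 and MED25, beside 19.2%. TTTAAA, picked after the windows had been seen, was in 7 windows (Polr2B, Taf4, TfIIA-L, MED17, MED31, MED25 and MED30), beside 16.8% of all summits and 11.3% of weaker candidates. This word holds only A and T, and the member windows had the lower median GC content (26.7%, beside 36.6%). Its count was not adjusted for that, and the part of base composition was not tested. With 15 windows, words that occur in a few percent of summits may be missed by counting alone.

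Of the 13 RNA polymerase II genes 3 had a thresholded summit (23.1%, interval 8.18 to 50.3), beside 17.0% of all protein-coding genes, a value inside that interval. The strongest 3816 summits of each replicate gave the same number, where 15.5%, 17.0% and 17.0% of all genes had one. Polr2B, which encodes the second largest subunit and forms the active site with Polr2A, ranked 613 of 30000 in the pooled candidate list (authors' signal 345) and 1309, 440 and 1011 in replicates 1, 2 and 3. All 3 replicates placed it well inside their 3816 strongest, the number of thresholded peaks, which is used as the rank limit below. Its summit, 150 bp upstream of the start, lay between genes and closer to the start of 140up, 93 bp away, than to that of Polr2B.

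Polr2F, the RPB6 subunit that polymerases I, II and III share, ranked 1251 in the pooled list (signal 240) and 2629, 1244 and 1044 in the replicates. Its summit was 44 bp upstream of the start, with no start of another gene within 500 bp. Polr2J, the RPB11 subunit, ranked 2072 (signal 185) and 3685, 2285 and 1922 in the replicates, so that replicate 1 held it only just inside the limit. Its summit was 76 bp upstream, and the start of CG15141 lay 159 bp from the summit on the other side. These were the members of the polymerase with a strong summit in every replicate, and replicate 1 gave each of them its weakest rank.

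The gene for the largest, catalytic subunit, Polr2A, had a weak candidate only. It ranked 14963 in the pooled list (signal 60.9) and 22003, 17829 and 5207 in the replicates, 69 bp downstream of its start in the 5′ UTR. Polr2C, the RPB3 subunit, had a candidate at rank 6656 that lay 358 bp upstream, closer to another coding start (126 bp away, PolG2 and GatC both being within 500 bp), and replicate 3 alone held a summit within 100 bp of it, at rank 16356. Polr2H, the shared subunit RPB8, had its candidate at rank 8737, 8 bp from the start of CG11247 and 118 bp from its own. The other 7 genes, for the subunits Polr2D, Polr2E, Polr2G, Polr2I, Polr2K and Polr2L and for the associated Polr2M, had no pooled candidate within 500 bp. With a pooled candidate at 6 of 13 genes (46.2%), the polymerase stood near the 49.3% of all protein-coding genes. The 2 genes of the active site stood at rank 613 and rank 14963. Of these summits, the one at rank 613 was nearer to the start of 140up than to that of Polr2B.

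**Figure D1:**
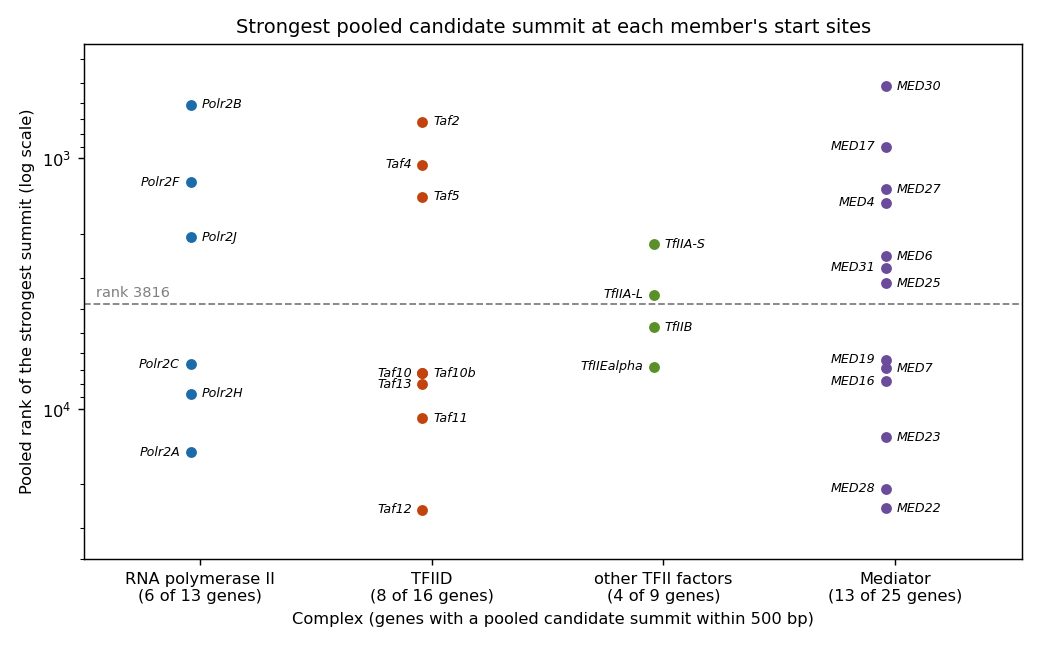
Pooled rank of the strongest candidate summit within 500 bp of a start site for the 31 members that had one, by complex (log axis, strongest at the top). Each point is a gene and the dashed line is rank 3816, the last thresholded peak; 15 genes lie above it, from MED30 at 516 to TfIIA-L at 3505, and the next gene, TfIIB, stands at 4730.

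TFIID had strong summits at 3 of its 16 genes (18.8%, interval 6.59 to 43.0), a share close to the 17.0% of all genes. Taf2, which contacts DNA around the start site, ranked 717 (signal 319) in the pooled list and 1545, 769 and 828 in the replicates. Its summit, 187 bp upstream of Taf2, fell in the 5′ UTR of the divergent gene CalpB, a calpain protease, 108 bp from that gene's start. Taf4, a histone-fold TAF that pairs with Taf12, ranked 1061 (signal 261) and 2847, 839 and 1271, and of these 3 genes it was the one with no other start within 500 bp of the summit. This summit lay 107 bp upstream of 1 of its 3 annotated starts and inside an intron of the longer transcripts.

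Taf5, the WD40-repeat TAF, was strong in the pooled list (rank 1427, signal 224) and uneven in the replicates. Replicate 2 ranked it 616 and replicate 3 ranked it 3897, just past the limit of 3816, while replicate 1 held no summit within 100 bp and only one at rank 16043 anywhere within 500 bp of the start. The summit was 196 bp upstream of Taf5 and 105 bp from Pex6, which encodes a peroxisome biogenesis ATPase.

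Among the other TFIID genes, Taf10 and Taf10b face each other and shared 1 candidate. It ranked 7232 in the pooled list, 17021 in replicate 1 and 5627 in replicate 3, and no summit of replicate 2 was within 100 bp. It lay 9 bp inside Taf10b and 54 bp upstream of Taf10. Taf13 (rank 7994), Taf11 (10925) and Taf12 (25368) had candidates as well, of which Taf13 was the strongest in a replicate, with rank 3239 in replicate 3. Tbp, the factor that binds the TATA box, had no pooled candidate, and its best summits in replicates 2 and 3 ranked 29255 and 10193. No pooled candidate was found at Taf1, Taf3, Taf6, Taf7, Taf8, Taf9 or the testis relative Taf12L either.

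Of the 9 remaining TFII genes 2 had a thresholded summit (22.2%, interval 6.32 to 54.7), beside 17.0% of all protein-coding genes. Both encode TFIIA, which stabilises Tbp on DNA. TfIIA-S, the small subunit, ranked 2203 (signal 179) and 2672, 3679 and 1339 in the replicates, all inside the limit, 47 bp upstream of its start and with no other start within 500 bp. TfIIA-L, the large subunit, had the weakest thresholded summit of all members, at rank 3505 (signal 141). Its replicate ranks were 3975, 2174 and 16693, so replicate 2 alone placed it inside the limit. That summit lay in an intron of TfIIA-L, 156 bp upstream of an internal start and 92 bp from the start of pll, which encodes the Pelle kinase of the Toll pathway. The third gene of the factor, TfIIA-S-2, had no candidate in any list.

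TfIIB, which links Tbp to the polymerase, came closest to the threshold from below, at rank 4730 (signal 119). Within 500 bp of its start the best summits ranked 14006, 3175 and 1842 in replicates 1, 2 and 3, so TfIIB was the member without a thresholded peak that was inside the limit in most replicates. The pooled summit was 320 bp upstream of TfIIB and 100 bp from the start of Bug22, a cilium protein. TfIIEalpha had a candidate at rank 6811, with replicate summits at 11263, 14782 and 4008, and TfIIEbeta, TfIIFalpha, TfIIFbeta and TfIIS had none in the pooled list.

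Mediator had the most members with a thresholded summit, 7 of 25 (28%, interval 14.3 to 47.6), again with 17.0% inside the interval. They were spread over the modules: 2 of 7 head genes, 2 of 9 middle genes, 1 of 5 tail genes and 2 of the 3 genes MED27, MED28 and MED30, while the scaffold gene MED14 had no candidate in any list. With so few genes per module no order of modules can be read from these counts.

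MED30 had the strongest summit of all 63 genes, at rank 516 (signal 384). It ranked 618, 408 and 903 in the replicates, so every replicate placed it above rank 1000. The summit was 201 bp upstream of MED30 and 73 bp from the start of Rev1, which encodes a DNA polymerase for damaged templates. MED27 ranked 1331 (signal 233) and 1232, 980 and 3475, with its summit 107 bp upstream and the start of elm 171 bp away. MED28 had a weak candidate only, at rank 20912, with no replicate summit within 100 bp of it.

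Of the head genes, MED17 ranked 899 (signal 285) and 1234, 789 and 2464 in the replicates, 167 bp upstream of its start, with CG12321 facing it at 198 bp from the summit. MED6 ranked 2470 (signal 169) and 3617, 4217 and 1063, 7 bp upstream of 1 of its 5 starts and 12 bp from the start of Naa80, an acetyltransferase for actin. The head gene MED22 had a pooled candidate at rank 25000 and none in any replicate. MED8, MED11, MED18 and MED20 had no pooled candidate.

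In the middle module, MED4 ranked 1509 (signal 219) and 4177, 2156 and 1211, 171 bp upstream of its start within an antisense transcript, asRNA:CR43470. Replicate 1 thus held it just past the limit. MED31 ranked 2735 (signal 159) in the pooled list, but replicate 2 alone had a summit within 100 bp, at rank 1248. Anywhere within 500 bp of the MED31 start, the best summits of replicates 1 and 3 ranked 5356 and 3076. The pooled summit lay in an intron of CG9775, 203 bp from MED31 and 78 bp from the nearest other coding start, with slx1, a nuclease subunit gene, also within reach. MED19 and MED7 followed below the threshold at ranks 6396 and 6893. MED19 was inside the limit in replicate 1 (2201) and MED7 in replicate 2 (2986). MED1, MED9, MED10, MED21 and MED26 had no pooled candidate.

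MED25 was the tail gene with a thresholded summit, at rank 3156 (signal 148), with 4992 and 2695 in replicates 1 and 3. Replicate 2 had no summit within 100 bp, although one at rank 1821 lay within 500 bp of the start. At 343 bp upstream this was, of the 15 thresholded member summits, the one farthest from its start, and the start of Hs6st, which encodes a heparan sulfate sulfotransferase, was 92 bp from it. The tail genes MED16 and MED23 had candidates at ranks 7764 and 13013. MED15 and MED24 had none within 500 bp, but MED15 missed the distance narrowly: a summit of rank 381 (signal 448), with ranks 228, 690 and 408 in the replicates, lay 550 bp upstream of its start and 263 bp from that of CG4297.

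**Figure D2:**
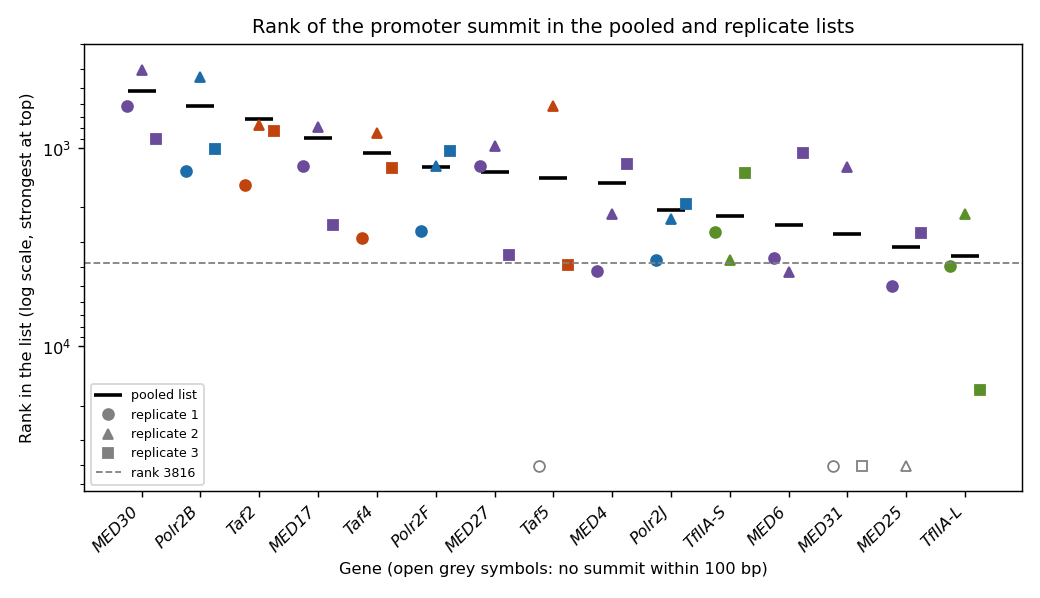
Rank of the promoter summit of the 15 members with a thresholded peak in the pooled list (black bars) and in replicates 1, 2 and 3 (circles, triangles and squares, coloured by complex), on a log axis with the strongest at the top. The 9 genes with all symbols above the dashed line at rank 3816 include MED30, Polr2B and Taf2, and open symbols mark the absent summits of Taf5, MED31 and MED25.

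The replicates held the same strong summit at 9 of the 63 genes (14.3%, interval 7.7 to 25). For this count the pooled summit needed a summit within 100 bp of it among the 3816 strongest of every replicate. Of all protein-coding genes 7.69% reached this, a value just below the lower end of the interval. The sets were not matched for divergent neighbours, protein-coding genes on the other strand that start within 500 bp upstream. When the summits had to match within 50 bp, 4 of the 63 members did, beside 5.32% of all genes. The 9 were Polr2B, Polr2F, Polr2J, Taf2, Taf4, TfIIA-S, MED17, MED27 and MED30. Of the 15 members with a thresholded peak these were 60.0%, beside 45.2% of all genes with one. A summit within 100 bp, of any rank, was present in all 3 replicates for 12 of the 15 (80.0%) and for 77.6% of all genes with a thresholded peak. The smallest p that an exact sign-flip test on 3 replicates can give is 0.25, so no test over replicates was made.

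Counted in each replicate on its own, 11, 16 and 15 members had a summit among the 3816 strongest within 500 bp of a start in replicates 1, 2 and 3. These were 17.5%, 25.4% and 23.8% of the members, against 15.5%, 17.0% and 17.0% of all genes. The mean was 22.2% ± 4.20 for the members and 16.5% ± 0.859 for all genes (SD, n = 3). It was higher for the members in 3 of 3 replicates and by the least in replicate 1. The Wilson intervals of the members, 10.0 to 28.6, 16.3 to 37.3 and 15.0 to 35.6, each held the share of all genes. The 3 lists cover the same genes, so the SD does not measure the sampling of genes. These shares too were not matched for divergent neighbours, which 60.3% of the members and 27.4% of all genes had. Among members with a thresholded peak the matched summits had a median rank of 2672 in replicate 1, 1112 in replicate 2 and 1305 in replicate 3, while over all genes with a thresholded peak the medians were 1690, 1623 and 1666. The order of the replicates differed between genes: MED27 was weakest in replicate 3 and MED6 in replicate 2.

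**Figure D3:**
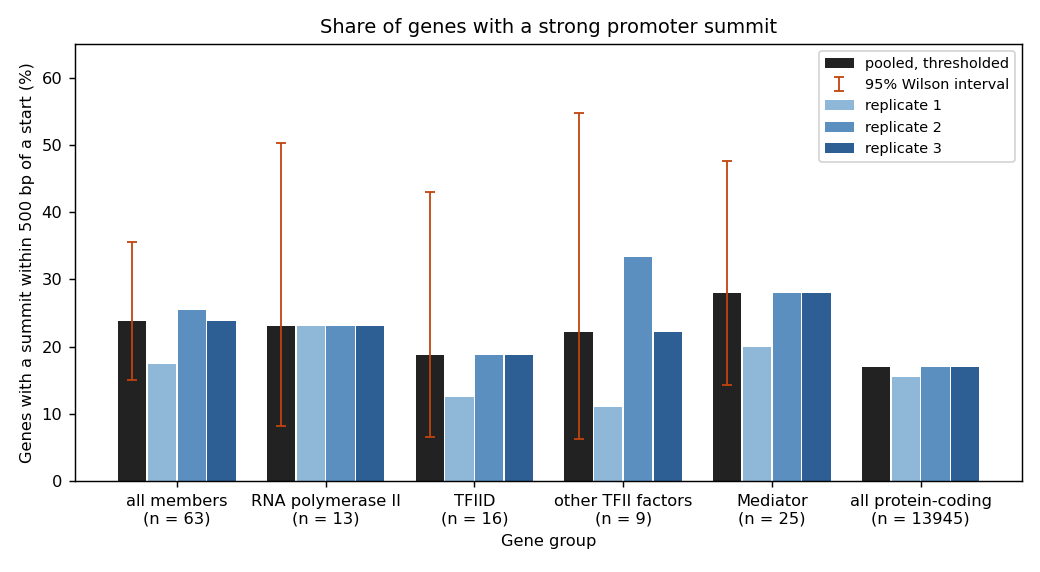
Percentage of genes with a summit within 500 bp of a start site in the thresholded list (black, with Wilson 95% intervals for the members) and among the 3816 strongest summits of replicates 1, 2 and 3 (blue), by complex and for all 13945 protein-coding genes. The intervals of all 4 complexes hold the 17.0% of all genes and overlap each other.

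The 4 complexes differed little beside their errors: the shares ran from 18.8% for TFIID to 28% for Mediator with intervals that overlap widely. Candidates of any strength were as common at members as elsewhere: 31 of 63 genes (49.2%) had a pooled candidate within 500 bp, and 49.3% of all genes. By complex the counts were 6 of 13, 8 of 16, 4 of 9 and 13 of 25. Among genes with a candidate the median pooled rank was 4730 for the members and 6456 for all genes, but within 1000 bp the order turned, to 6656 and 6529. Of the 32 members without a pooled candidate, 17 had none in any replicate, and the best replicate summit of the others was at TfIIEbeta, rank 8730 in replicate 2.

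The members differed from other genes in the layout of their promoters. A divergent neighbour, meaning a protein-coding gene on the other strand that starts within 500 bp upstream, was present at 38 of the 63 members (60.3%) and at 27.4% of all protein-coding genes. Among genes with such a neighbour, 11 of the 38 members (28.9%) had a thresholded summit, and so did 29.1% of all. Without one, 4 of 25 members (16%) had a summit, beside 12.4%. Set against genes of the same layout, the members' share was thus at the background for divergent promoters. For the rest, the interval of 6.40 to 34.7 around 16% held the background. The 4 genes were Polr2F, Taf4, TfIIA-S and MED4. Mediator had the highest share of divergent genes, 17 of 25, of which 6 had a summit, and the other TFII factors the lowest, 4 of 9, of which 1 had.

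Which gene of a pair a summit belongs to cannot be read from its position. At 11 of the 15 members with a thresholded summit the start of another coding gene was within 500 bp of that summit (73.3%, beside 48.4% for all such genes), and at 7 the other gene's start was the nearer one. When each summit was counted only for the nearest coding start, 8 of 63 members kept a summit, which is 12.7% beside 13.4% of all genes. The 8 were Polr2F, Polr2J, Taf4, TfIIA-S, MED4, MED6, MED17 and MED27. MED30, Polr2B and Taf2, the 3 members of highest signal, were counted for their neighbours Rev1, 140up and CalpB under that rule.

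Other ways of counting moved the members and the background by different amounts. Within 250 bp of a start 14 members had a thresholded summit (22.2%, interval 13.7 to 33.9), MED25 being the one lost, and the 13.5% of all genes lay below that interval. Within 1000 bp there were 16 (25.4%, interval 16.3 to 37.3), with MED15 added. That interval held the 19.7% of all genes. Limited to the 1908 strongest thresholded peaks the count was 9, which is 14.3% of the members beside 9.44% of all genes. Most members have a single annotated start, and among the 57 that do, 12 had a summit (21.1%, interval 12.5 to 33.3). The share of all genes with 1 start was 11.8%, below the interval, as at 250 bp. These intervals cover the counting of genes only and are not tests. None of these counts was matched for divergent neighbours, which 60.3% of the members and 27.4% of all genes had.

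All 15 thresholded summits lay upstream of the member's nearest start, by 7 bp at MED6 to 343 bp at MED25. The median distance was 156 bp, and 8 of the 15 fell between 100 and 200 bp upstream. Over all genes with a thresholded summit 77.0% lay upstream, with a median distance of 137 bp in either direction. The 2 sets were not matched for layout: another coding start was within 500 bp of the summit at 73.3% of these members and 48.4% of all such genes. Of the summits 9 lay between genes, and the others were in an intron of the member (Taf4, TfIIA-L), in a 5′ UTR (MED6, and CalpB for Taf2), in an intron of a neighbour (MED31) or in a non-coding exon (MED4).

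**Figure D4:**
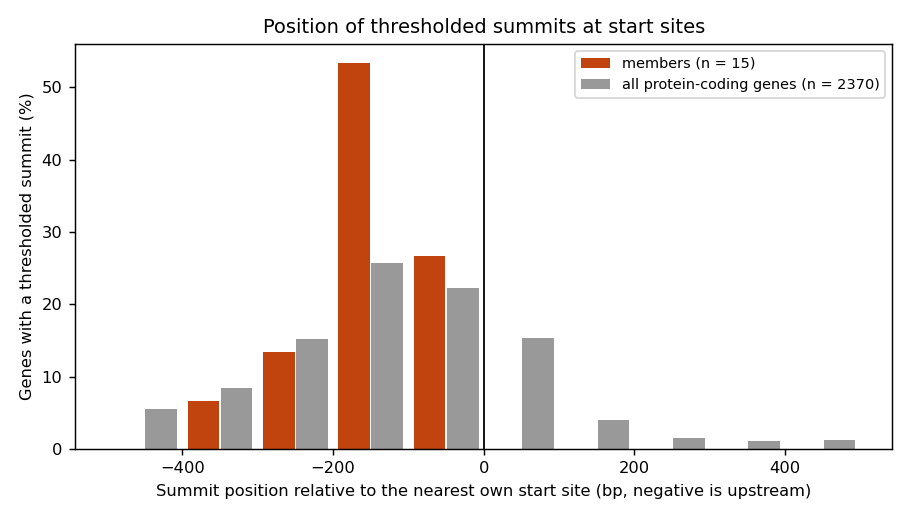
Position of the thresholded summit relative to the nearest start site of the gene, in bins of 100 bp, for the 15 members (orange) and for all 2370 protein-coding genes with one (grey), as a percentage of each set. The member summits are all left of the start, with 53.3% of them in the bin from 200 to 100 bp upstream, where 25.7% of all genes had theirs. The sets were not matched for divergent neighbours.

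Members with a summit were on arms 3R (9 of 21), 3L (4 of 15), 2L (1 of 11) and 2R (1 of 8), and the 6 members on X and 2 on chromosome 4 had none. Over all genes the share with a thresholded summit ran from 14.6% on X to 17.8% on 3R. The member summit on 2R, at Taf5 (peak from 10879641 to 10880096 in dm6), is given without its sequence.

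Some members lay within reach of strong peaks that were nearer to the starts of other genes. The strongest of these, picked after its value was seen, ranked 14 (signal 1266) and lay 2117 bp from the start of Polr2C, past its far end and 110 bp from a start of CenG1A; the replicates ranked it 10, 32 and 24. Downstream of Taf13 a summit at rank 358 was 42 bp from Pyroxd1, and near Taf12 one at rank 723 was 131 bp from CG18476. Those at Taf9 (rank 864) and Taf10b (1053) were likewise nearest to other coding genes, Ucp4A and Snx21. None of these was within 500 bp of a member's start.

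Genes that work beside the members but carry other names gave a similar share. From a list of 63 symbols, 57 further genes were matched, and 12 had a thresholded summit (21.1%, beside the same 17.0% of all genes). For TFIIH, which opens the promoter DNA, 1 of 10 genes did: Ssl1, at rank 33 (signal 1062) and at 34, 52 and 22 in the replicates, stronger than any member, with the start of Chro also within 500 bp. In the kinase module of Mediator it was skd (MED13 in other animals) at rank 1876, 1 of 4 genes. The start of Pdss2 was also within 500 bp of the skd summit. Of 6 relatives of Tbp and the TAFs in that list 0 had one, and the nearest to the threshold was Trf2 at rank 3944.

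For polymerases I and III, 3 of 18 genes had a thresholded summit (16.7%, beside 17.0% of all protein-coding genes). They were Polr3E at rank 360, and the TFIIIB genes Bdp1 and Brf at ranks 538 and 683. Each of these summits had the start of another gene within 500 bp (CG10584, CG6565 and sds22). Among genes listed for pausing and elongation, 7 of 19 had one (36.8%, beside the same 17.0%). They were Nelf-E (rank 49), CycT (638), EloA (1180), dre4 (1418), Spt6 (3042), TH1 (3069) and Nelf-A (3580). The start of another gene was within 500 bp of the summit at Nelf-E (RpL14 among them), EloA (Rad60), Spt6 (schlank), TH1 (mei-41) and Nelf-A (CG3337). The related genes were not matched to all genes for divergent neighbours. Of these 7, CycT, the cyclin of P-TEFb, and Nelf-E were inside the rank limit in all 3 replicates, at 646, 1494 and 309 and at 91, 44 and 37.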

How the data were processed

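Peak lists from CG6765 ChIP-seq of 3 embryo replicates, sheared to 200 to 800 bp per the labels, were used as deposited. Per the file descriptions deposited with the samples, the authors called candidate peaks and background (30000 regions in each list) against a control in each replicate and in the pooled replicates, on dm6 and dm3, and derived 1 thresholded list per assembly. Aligner, caller and threshold: not given in the sources used here. Per peak the authors deposited a signal value of no stated unit, which served here for ranking inside each list alone, a q-value as its −log10, not used for ranking, and a summit offset. The 3816 thresholded dm6 peaks were the strongest pooled candidates, checked on the files. Their signal ran from 135 to 2699. The dm3 lists were not used.

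Start sites came from Ensembl release 115 (BDGP6.54) and sequence from RefSeq release 6, both on dm6 coordinates, and all peaks ended within the arms. Positions count from 1. For each gene the strongest pooled summit within 500 bp of any start site was taken, and its rank in a replicate was that of the best summit within 100 bp of it. The assignment of summits to genes was tested on simulated data. Named genes were all members with a thresholded summit, the 5 best-ranked others and the best of each complex, those with no candidate, and related genes with a thresholded summit; others are named as chosen later or to account for every member. The lists give no read totals, and the depth of each library is unknown. Peaks and genes are not replicates, and no test was run over the members. Members, related genes and all lists were chosen with earlier results of these data known. Python 3.11.15, numpy 2.4.6 and scipy 1.17.1 were used.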

Additional observations from a re-analysis of the deposited data

How the results depend on the processing

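Of 31 alternative values 22 stayed within 1.5 times the reported count or within the replicate spread of a median, and 9 did not. With only the 1908 strongest thresholded peaks, 9 members (14.3%) had a summit within 500 bp, beside 9.44% of all genes. Among these 9 were 4 of Mediator and 0 of the other TFII factors. With each summit counted only for the nearest coding start, 8 members (12.7%) had one, beside 13.4% of all genes. Among these 8 were 1 of TFIID, 1 of the other TFII factors and 4 of Mediator. The number of members strong in every replicate fell from 9 to 4 when summits had to match within 50 bp (all genes fell to 5.32%), and ran from 9 to 10 without 1 replicate, while the share of all genes rose from 7.69% to between 9.39% and 10.3%. The median pooled rank of member candidates was 6656 within 1000 bp of a start, beside 4730 within 500 bp. The same limit gave 6529 for all genes, so the members' lower median did not hold there. Complexes hold 9 to 25 genes, which limits every share given for them. Depth behind the ranks is unknown.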
